A study of Mus musculus with 2 samples.

Results

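The 8 T-box genes Tbx1, Tbx2, Tbx3, Tbx4, Tbx5, Tbx15, Tbx18 and Tbx20 were described in chromatin of the mouse urinary bladder. They were taken by name, out of 21938 protein-coding genes of GENCODE M21 on mm10, and each was examined over its gene body and 50 kb on either side. DNase-seq maps the places where the enzyme DNase I cuts nuclear DNA, which marks open chromatin. The libraries came from bladder tissue of B6CASTF1/J mice, all male and 36 days old, the first generation of a cross between C57BL/6J and CAST/EiJ. There was 1 group of 2 libraries, replicate 1 and replicate 2, labelled as separate males. Both carry the same donor entry, and whether it stands for the strain is not stated, so an SD over them may be partly technical. The study had no treatment, genotype or control group, so no test between groups was possible, and the libraries are given side by side. In whole tissue, a smaller share of cells with open chromatin and less opening per cell cannot be told apart.

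T-box factors share a DNA-binding domain, the T-box, and bind elements built around the letters AGGTGTGA. Tbx2 and Tbx3 are mainly repressors. In the mouse ureter they act in the mesenchyme that becomes the muscular coat, where they keep the cells in that fate. Tbx18 marks the same mesenchyme in the mouse embryo and is needed there for smooth muscle to form around the ureter. Tbx4 and Tbx5 direct hindlimb and forelimb outgrowth and are also used in lung mesenchyme. Tbx1 patterns the pharyngeal arches, Tbx20 the heart, and Tbx15 the skeleton and dermis. Tbx2 and Tbx4 are neighbours on one chromosome and Tbx3 and Tbx5 on another, the result of an ancient duplication of a gene pair.

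The sequences on which the results turn are of 2 kinds, and all come from the RefSeq copy of GRCm38.p6, the assembly behind mm10. Each reads 5′ to 3′ on the strand of the named gene, and capitals mark bases inside a footprint of either library. A footprint is a short stretch, inside open chromatin, that is protected from cutting. The first set is the highest site of each window that touched no annotated start and was found in both libraries, for the 4 genes where that site carried a wide footprint.
Tbx1, -27.2 kb, chr16:18617761-18617940, minus strand: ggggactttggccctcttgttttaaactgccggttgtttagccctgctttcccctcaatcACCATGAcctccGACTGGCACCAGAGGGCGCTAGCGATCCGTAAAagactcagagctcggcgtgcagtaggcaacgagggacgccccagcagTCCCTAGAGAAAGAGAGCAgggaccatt
Tbx2, 12.3 kb, chr11:85844701-85844920, plus strand: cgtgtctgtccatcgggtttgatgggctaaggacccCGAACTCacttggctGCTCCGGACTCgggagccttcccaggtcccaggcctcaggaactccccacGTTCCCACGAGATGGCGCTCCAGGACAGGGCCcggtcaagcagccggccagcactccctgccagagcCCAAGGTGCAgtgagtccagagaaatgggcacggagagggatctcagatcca
Tbx3, 42.4 kb, chr5:119712961-119713160, plus strand: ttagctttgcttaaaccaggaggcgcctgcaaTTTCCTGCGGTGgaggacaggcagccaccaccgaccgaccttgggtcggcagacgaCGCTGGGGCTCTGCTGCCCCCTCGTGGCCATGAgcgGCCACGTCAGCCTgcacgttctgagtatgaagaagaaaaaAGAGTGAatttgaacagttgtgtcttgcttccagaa
Tbx18, 22.9 kb, chr9:87708290-87708420, minus strand: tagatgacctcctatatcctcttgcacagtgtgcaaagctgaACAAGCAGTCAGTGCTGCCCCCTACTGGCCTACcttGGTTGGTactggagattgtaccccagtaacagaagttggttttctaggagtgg
Distances run from the 5′ end of the gene in its direction of transcription. The Tbx18 stretch lies in an intron, and the other 3 touch no annotated gene. The second set is the open DNA at the starts of Tbx3, Tbx18 and Tbx20, which span the range of heights among the starts open in both libraries. The Tbx3 stretch is limited to the bases upstream of the gene and lies inside the antisense gene Tbx3os1. The Tbx18 stretch is intronic, near an internal transcript start, and overlaps the gene D030062O11Rik. The Tbx20 stretch lies just upstream of the gene. The start peak of Tbx2, which reached into the gene in both libraries, is not printed.
Tbx3 start, chr5:119670461-119670668, plus strand: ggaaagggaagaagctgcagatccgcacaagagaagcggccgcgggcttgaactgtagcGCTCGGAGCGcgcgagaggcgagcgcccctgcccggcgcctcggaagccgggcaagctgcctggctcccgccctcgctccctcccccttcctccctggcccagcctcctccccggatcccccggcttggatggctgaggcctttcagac
Tbx18 start, chr9:87730000-87730299, minus strand: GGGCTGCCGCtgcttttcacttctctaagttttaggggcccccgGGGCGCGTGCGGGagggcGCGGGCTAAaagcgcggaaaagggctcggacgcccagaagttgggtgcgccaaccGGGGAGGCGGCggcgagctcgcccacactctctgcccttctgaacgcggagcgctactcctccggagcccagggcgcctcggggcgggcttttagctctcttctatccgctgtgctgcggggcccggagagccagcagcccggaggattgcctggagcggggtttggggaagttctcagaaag
Tbx20 start, chr9:24774321-24774497, minus strand: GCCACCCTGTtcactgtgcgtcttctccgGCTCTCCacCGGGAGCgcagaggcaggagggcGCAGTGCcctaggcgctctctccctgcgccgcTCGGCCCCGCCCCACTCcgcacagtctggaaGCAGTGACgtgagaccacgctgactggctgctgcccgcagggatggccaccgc

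Peak height is the deposited signal value of a peak, on a scale set separately for each library. The shorter deposited peak list held 38674 peaks in replicate 1 and 47661 in replicate 2. Heights fell on even steps of 0.0113 in replicate 1 and 0.00894 in replicate 2, a ratio of 1.27 between the scaling constants. The read depth itself is unknown. Start peaks, those within 500 bases of an annotated transcript start, had a median height of 2.00 in replicate 1 and 1.78 in replicate 2. Overlapping peaks of both libraries were merged into sites, of which there were 51228. The tissue label was read against marker starts. Both libraries had start peaks for 6 of 7 urothelial genes (Upk1a, Upk1b, Upk2, Upk3a, Cdh1 and Grhl2), for 2 of 6 smooth muscle genes (Myh11 and Mylk) and for 2 of 3 fibroblast genes (Pdgfra and Col1a1). The smooth muscle genes Acta2, Tagln, Des and Cnn1 and the fibroblast gene Dcn had none in the shorter list of either library, although Acta2, Des and Dcn had one in the longer lists of both. The count was 0 of 3 for endothelial, 0 of 3 for immune, 0 of 5 for cardiomyocyte, 0 of 4 for prostate and seminal vesicle and 0 of 3 for skeletal muscle genes. In the shorter list of a single library, a start peak was seen for the urothelial gene Krt5, with 1.24 in replicate 2. Others were those of the cardiomyocyte gene Myh7, with 0.429 in replicate 2, and of the skeletal muscle gene Ckm, with 2.10 in replicate 1. Krt5 had one in the longer lists of both libraries. Around the Ckm 5′ end 106 bases in replicate 1 and 126 in replicate 2 were listed at a false discovery rate of at most 0.05.

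Tbx3, Tbx2, Tbx20 and Tbx18 had a start peak in both libraries, in that order of mean height rank. That is 4 of 8 T-box genes, against 56% of all protein-coding genes. In single libraries the count was 4 of 8 in replicate 1, where 57.8% of protein-coding genes had one, and 6 of 8 in replicate 2, where 58.6% had one. With the longer peak lists it was 5 of 8, with Tbx15 added, against 61% of protein-coding genes. The shares lie near those of all genes, so an open start is not particular to the 8 genes. Ranked among all start peaks, with a gene lacking one set at 0, the mean percentile of the 8 genes had a median of 16, against 31.6 over all protein-coding genes.

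Tbx3 had the highest start peak of the 8, 4.04 in replicate 1 and 3.84 in replicate 2. It stood above 84.5% of start peaks in replicate 1 and 83.1% in replicate 2, a mean of 83.8 ± 1.02 (SD, n = 2). The peak spanned 579 bases in replicate 2 and also covered the start of Tbx3os1, so the opening cannot be assigned to one of the 2 genes. Tbx2 had a start peak of 2.95 in replicate 1 and 3.69 in replicate 2, a mean percentile of 74.8 ± 9.1 (SD, n = 2). Its peak in replicate 1 was shared with the divergent gene 2610027K06Rik and ran over 640 bases, while the replicate 2 peak was 240 bases wide and lay inside the gene. Both genes stood above the median of all start peaks in both libraries.

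The starts of Tbx20 and Tbx18 were open at low height. Tbx20 had 0.918 in replicate 1 and 1.40 in replicate 2, a mean percentile of 27.2 ± 18.7 (SD, n = 2). Tbx18 had 0.975 in replicate 1 and 0.973 in replicate 2, a mean percentile of 20.6 ± 5.98 (SD, n = 2). These 2 heights came from different peaks, and at the one place where the libraries overlapped near a Tbx18 start, the site printed above, the heights were 0.975 and 0.741. Intervals of 1 SD around the mean percentile overlapped between Tbx3 and Tbx2 and between Tbx20 and Tbx18, while the upper pair did not overlap the lower pair. Around the Tbx18 starts the shorter lists broke the signal into 6 neighbouring sites, with heights of 0.975 and 0.850 in replicate 1, against 0.571 to 0.973 in replicate 2. All 6 also overlap the gene D030062O11Rik, and the lowest, 0.571, lay at a start of that gene and not of Tbx18. In the longer list of replicate 2 several of the sites had the same height, 0.741.

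Tbx5 and Tbx15 had a start peak only in replicate 2. That of Tbx5 was 0.509 high, above 3.04% of start peaks, and lay 2.9 kb inside the gene at an internal start. That of Tbx15 was 0.929 high, above 22.8%, 13.7 kb inside the gene at another internal start. Tbx15 passed in replicate 1 with the longer list, but through another peak. At the site of the 0.929 peak, replicate 1 had no peak in either list. Tbx1 and Tbx4 had no start peak in either list of either library. Bases listed with a false discovery rate (FDR) of at most 0.05 marked the same 4 genes around the 5′ ends. Within 500 bases Tbx2 had 894 such bases in replicate 1 and 746 in replicate 2, Tbx3 had 847 and 808, Tbx18 had 681 and 764, and Tbx20 had 505 and 330. Tbx5 had 0 in replicate 1 and 16 in replicate 2, and Tbx1, Tbx4 and Tbx15 had none. At least 1 such base was present for 4 of 8 T-box genes in replicate 1 and 5 of 8 in replicate 2, against 58.7% and 59.3% of protein-coding genes.

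**Figure D1:**
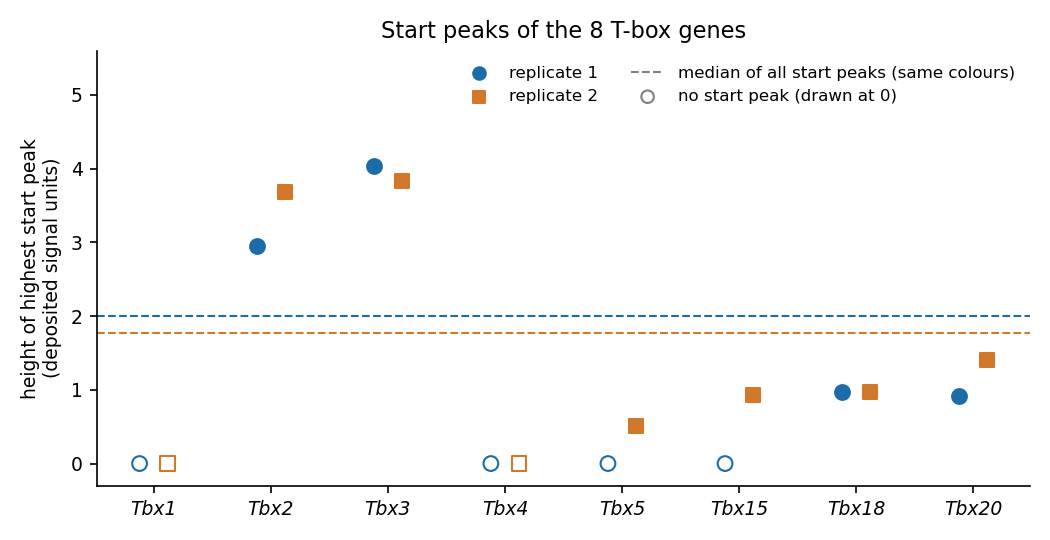
Height of the highest start peak of each T-box gene in replicate 1 (circles) and replicate 2 (squares), in deposited signal units, with the median of all start peaks of each library as a dashed line. Tbx2 and Tbx3 lie above both lines, Tbx18 and Tbx20 below, and open symbols at 0 mark starts with no peak.

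The genes with a start open in both libraries were also those with the most CpG around the 5′ end. CpG was not taken at internal starts, where the start peaks of Tbx5 and Tbx15 and the shared Tbx18 site lay. The ratio of observed to expected CpG in the 1 kb around the 5′ end was 0.821 at Tbx3, 0.756 at Tbx2, 0.754 at Tbx18 and 0.628 at Tbx20. It was 0.604 at Tbx1, 0.512 at Tbx4, 0.426 at Tbx5 and 0.364 at Tbx15, against a median of 0.552 over all protein-coding genes. Among protein-coding genes, those at 0.6 or above had a start peak in both libraries in 88.8% of 10083 cases, and those under 0.6 in 28% of 11855. The 4 T-box genes with a start open in both libraries were all above 0.6, and Tbx1, just above 0.6, had no start peak.

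The windows of the 8 genes held 48 distinct sites, 10 of them shared between the windows of Tbx2 and Tbx4. Of these, 20 were found in both libraries, 15 in replicate 1 only and 13 in replicate 2 only. The share found in replicate 1 only was 31.2%, against 10.3% of all 51228 sites. The share found in replicate 2 only was 27.1%, against 28% of all sites. No test was made of these shares, and neighbouring sites of a window are not independent. The 15 sites of replicate 1 lay near Tbx2 (6), Tbx3 (6), Tbx18 (2) and Tbx1 (1), and the 13 of replicate 2 near Tbx5 (7), Tbx18 (4), Tbx3 (1) and Tbx15 (1). Of the 15 found in replicate 1 only, 8 (53.3%) had a peak in the longer list of replicate 2, against 56.1% of all such sites. Of the 13 found in replicate 2 only, 3 (23.1%) had a peak in the longer list of replicate 1, against 56.9%. By median height, the sites of a single library were lower than those found in both. Their median was 0.85 for those of replicate 1, the highest of which reached 2.13, and 0.571 for those of replicate 2. The same held over all sites, where the medians were 0.828 and 0.723 for a single library and 1.67 and 1.54 for sites found in both.

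At the 20 sites found in both libraries the heights went together. Their median was 1.51 in replicate 1 and 1.55 in replicate 2, and the log2 ratio of replicate 1 over replicate 2 had a median of -0.035 and an SD of 0.34. Over all 31612 sites found in both libraries the median was 0.081 and the SD 0.32. A distance of over 2 SD from that median was seen at 2 of the 20 sites, against 5% of all shared sites. One was the Tbx3 site at 42.4 kb printed above, 3.16 in replicate 1 and 1.76 in replicate 2. The other was the start of Tbx20, which was lower in replicate 1.

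**Figure D2:**
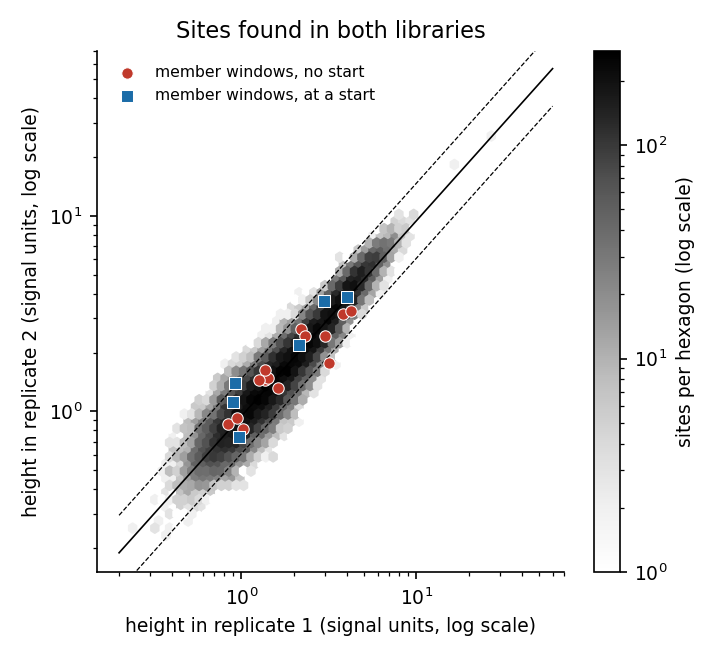
Height in replicate 1 against height in replicate 2, both in deposited signal units on log axes, for all 31612 sites found in both libraries (grey hexagons, darker where more sites fall) and the 20 of the T-box windows (circles away from starts, squares at starts). The solid line is the median ratio and the dashed lines lie 2 SD from it, and the 2 points outside them are the Tbx3 site at 42.4 kb and the Tbx20 start.

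Tbx2 stood in the densest surroundings of the 8. Its window held 9 sites found in both libraries, 8 of them away from any start. Those 8 came to 7.31 per 100 kb, a density above that of 99.7% of protein-coding genes. The Tbx4 window reached 4.63 per 100 kb away from starts, above 97.5%, yet 5 of its 6 sites are the ones it shares with Tbx2. Away from starts, the median over the 8 genes was 0.845 per 100 kb, the same as the median over all protein-coding genes. With sites at starts counted too, the density of sites found in both libraries was above 93.5% of protein-coding genes for Tbx2 and 75.7% for Tbx4. By single library it was above 98.9% in replicate 1 and 86.5% in replicate 2 for Tbx2, and 91.2% and 63.5% for Tbx4. The peaks near Tbx2 fell into a cluster from 9.5 to 16.7 kb downstream of its 5′ end. The site over the last exon had 1.61 in replicate 1 and 1.31 in replicate 2. Beyond the gene, the sites at 11.0 kb, 11.7 kb and 12.3 kb had 2.30, 3.02 and 3.81 in replicate 1, against 2.42, 2.44 and 3.13 in replicate 2. The one at 12.3 kb was higher than 97.9% of peaks away from starts in replicate 1 and 97.7% in replicate 2. The last of the cluster, at 16.7 kb in the gene Gm11444, had 1.26 and 1.46. Upstream, inside Bcas3, the site at -9.16 kb had 2.19 in replicate 1 and 2.64 in replicate 2, and those at -41.1 and -39.5 kb had 1.37 and 1.42, against 1.46 and 1.47.

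The body of Tbx2 was open over a wider stretch in replicate 1 than in replicate 2. Within it, 4703 bases, 50% of its length, were listed at an FDR of at most 0.05 in replicate 1, and 1347 bases, 14.3%, in replicate 2. The difference of 35.7 percentage points was larger in size than that of 99.8% of protein-coding genes, for which the median was 0.234. Between 3.65 and 10.4 kb, in the gene or just past its end, 6 sites were found in replicate 1 only, with heights from 0.646 to 1.09 and widths of up to 860 bases. For 3 of these 6 the longer list of replicate 2 held a peak, with heights of 0.661, 0.714 and 0.777. The cluster downstream of the gene was found in both libraries all the same. Tbx4 itself showed little: no start peak, and 1 site of its own, at 39.1 kb, with 0.839 in replicate 1 and 0.866 in replicate 2.

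**Figure D3:**
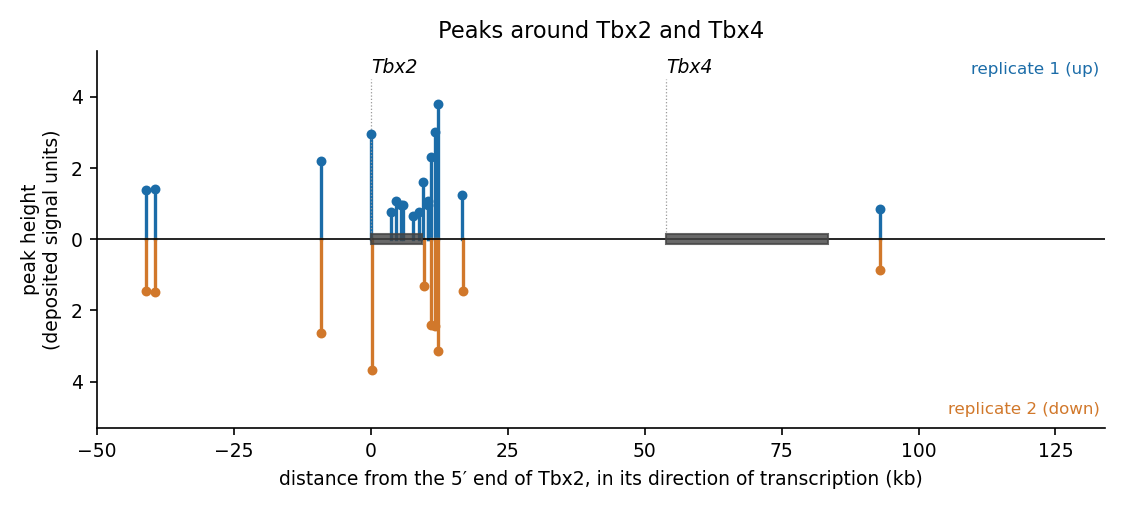
Peaks of the shorter lists around Tbx2 and Tbx4, by distance from the 5′ end of Tbx2 in kb, with replicate 1 drawn upward and replicate 2 downward and the height of each line in deposited signal units. Grey boxes are the gene bodies. The cluster near the end of Tbx2 stands in both libraries, the row of low peaks along its body stands in replicate 1, and the body of Tbx4 holds no peak.

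Tbx5 showed the reverse split. Its window held no peak of the shorter list in replicate 1 and 7 in replicate 2, with heights from 0.411 to 0.804. The highest, 1.32 kb upstream of its 5′ end, lay at the start of the gene Gm43050. The other 6 lay inside Tbx5, 5 of them between 2.9 and 7.58 kb. Bases listed at an FDR of at most 0.05 came to 0 of the gene body in replicate 1 and 3819, or 7.27%, in replicate 2. A difference of that size or more was seen in few genes: 97.3% of protein-coding genes had a smaller one. The longer lists had 2 peaks in the window in replicate 1, neither in the gene body, and 15 in replicate 2, 13 of them in the body. The 7 peaks of the shorter list stood above at most 16.8% of peaks of their class. Among markers of cardiomyocytes, a cell type that uses Tbx5, Myh7 had a low start peak in the shorter list of replicate 2 and one in the longer lists of both libraries, while Myh6, Nppa, Tnnt2 and Nkx2-5 had none in any list. The part of such cells in the Tbx5 values was not tested.

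Around Tbx3, the neighbour of Tbx5, the sites away from its start lay downstream of the gene, except a low one at -7.32 kb. That one had 0.748 in replicate 1 and was not found in replicate 2. At 15.4 kb a site had 1.36 in replicate 1 and 1.63 in replicate 2, and at 16.6 kb another had 0.941 and 0.920, both inside the long noncoding gene Tbx3os2. At the start of Tbx3os2, 20.6 kb downstream, replicate 1 had a peak of 2.13. The shorter list of replicate 2 had none there, but its longer list had one of 2.14, so the height was alike and the lists differed. The site at 42.4 kb was the highest away from starts, above 95.7% of such peaks in replicate 1 and 85.5% in replicate 2. Inside Tbx3 the start peak was the 1 peak of the shorter list in each library, and 3.34% of the body was listed in replicate 1 and 4.3% in replicate 2. Sites found in replicate 1 only near Tbx3, 6 in number, included the Tbx3os2 start and otherwise had heights from 0.669 to 1.02.

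**Figure D4:**
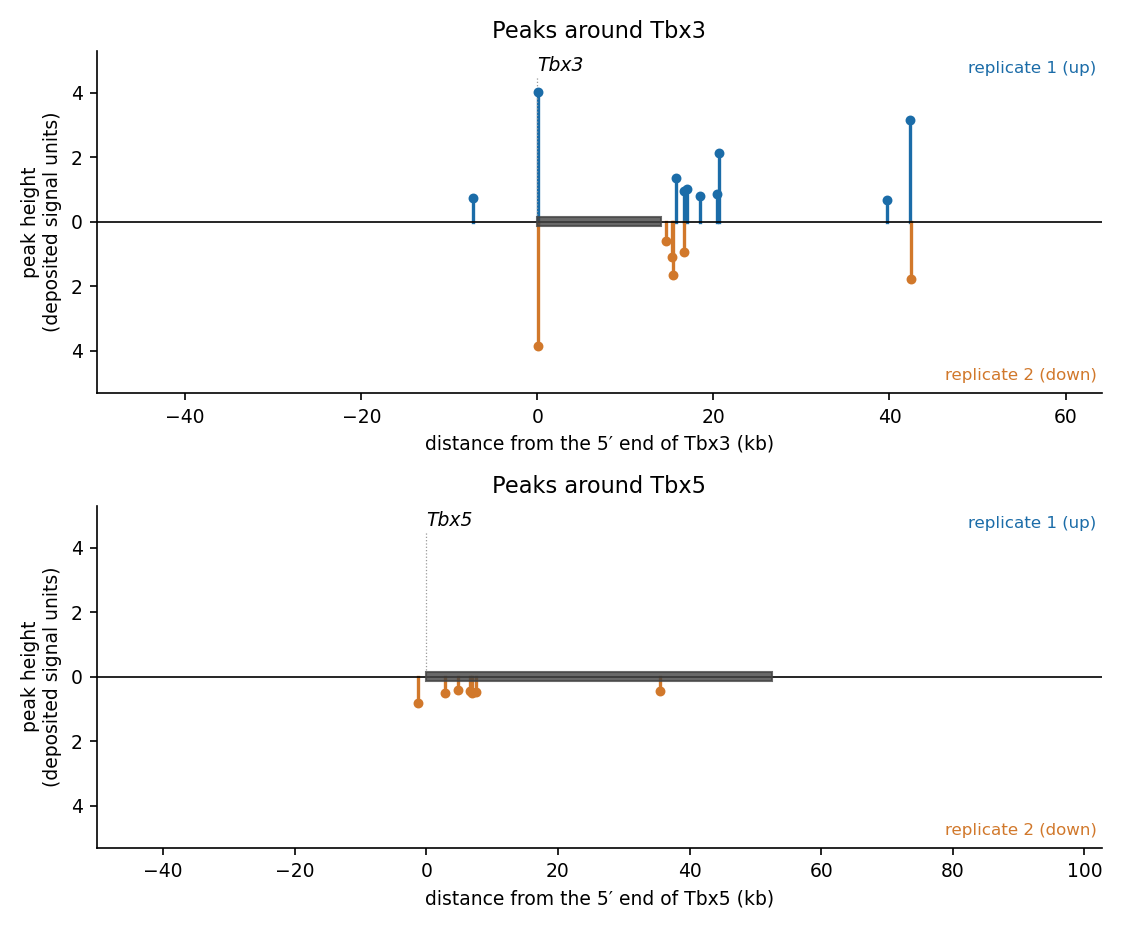
Peaks of the shorter lists around Tbx3 (top) and Tbx5 (bottom), by distance from each gene's 5′ end in kb, with replicate 1 upward and replicate 2 downward and heights in deposited signal units. The Tbx3 start and the site at 42.4 kb stand in both libraries, and around Tbx5 there are peaks of replicate 2 only.

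Tbx1 lacked an open start but had the highest site away from starts in any of the 8 windows. It lay 27.2 kb upstream and had 4.25 in replicate 1 and 3.28 in replicate 2, above 98.7% and 98% of peaks away from starts. The other Tbx1 sites were at starts of neighbours. That of Gnb1l had 0.896 and 1.12, and that shared by Sept5 and Gm49601 had 2.14 and 2.18. Another Sept5 start had 1.32 in replicate 1, and its peak in replicate 2, 1.14, was in the longer list only. No base of the Tbx1 body was listed in either library. Tbx18 had an intronic site at 22.9 kb with 1.02 in replicate 1 and 0.813 in replicate 2, and a site at -9.61 kb with 1.19 in replicate 1, where the longer list of replicate 2 had 0.661. The listed share of its body was 6.7% in replicate 1 and 6.69% in replicate 2. Tbx20 and Tbx15 had no further site, and under 1% of their bodies was listed in either library.

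**Figure D5:**
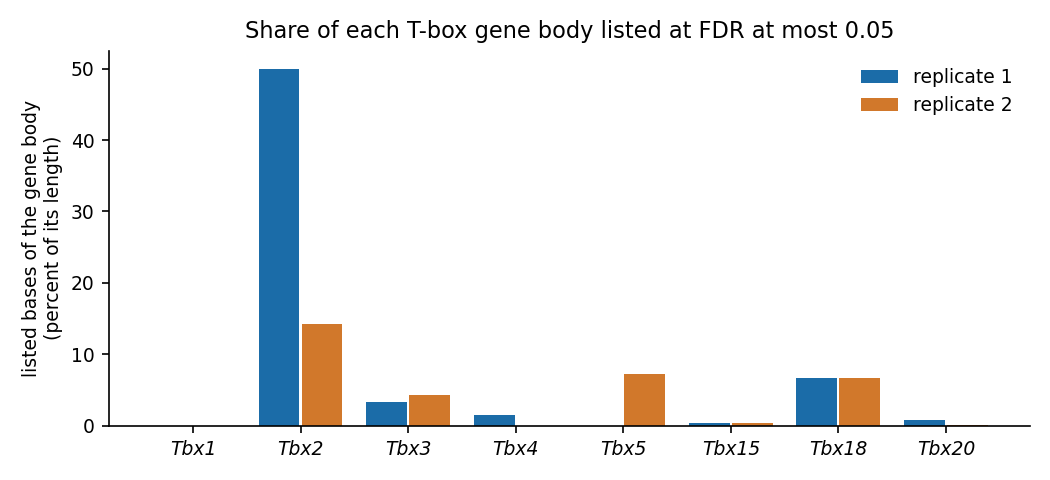
Percent of each T-box gene body listed at an FDR of at most 0.05, in replicate 1 (left bar) and replicate 2 (right bar). Tbx2 reaches 50% in replicate 1 and 14.3% in replicate 2, Tbx5 0% and 7.27%, and Tbx18 6.7% and 6.69%.

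The peaks of the T-box windows held 83 footprints in replicate 1 and 75 in replicate 2, or 2.24 and 2.21 per peak, against 2.54 and 2.44 over all peaks. A footprint of the other library overlapped 33.7% of those in replicate 1 and 32% of those in replicate 2, against 60.2% and 52.6% over all peaks. Of the sites themselves, 41.7% were found in both libraries, against 61.7% of all sites. Footprint overlap at shared sites alone was not computed. The widest footprint of the windows lay at the Tbx2 site at 11.7 kb, 41 bases in replicate 1 and 38 in replicate 2, at nearly the same place. The T-box element, AGGTGTGA or AGGTGTTA on either strand within 5 bases of the footprint, was in 0 of 83 and 0 of 75 footprints. Over all footprints it was in 0.0459% and 0.0439%, and at those shares the numbers would be 0.0381 and 0.0329, so 0 says nothing particular. Across whole sites it was in 0 of 48, against 0.863% of all sites. The shorter letters GGTGTG, part of AGGTGTGA, were in 5 of 48 sites (10.4%), against 16.3%. The SP letters GGGCGGG were in 7 of 48 sites (14.6%), against 21.9%, among them the printed stretches of the Tbx3, Tbx18 and Tbx20 starts. The TEAD letters GGAATG were in 0 of 48, against 10.8%, and the AP-1 letters TGANTCA in 4 (8.33%), against 10.1%.

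The 4 sites printed first were picked for a wide footprint, of 24 to 33 bases, so its presence there was fixed by the choice. In each, that footprint touches the letters CANNAGNNGGC, the core of the element bound by CTCF, the factor that anchors chromatin loops. The Tbx4 site found in both libraries was left out, and it had footprints of 7 to 9 bases and no match to these letters. The pattern was chosen after the sequences were seen. A stricter CTCF motif was in 0 of 83 footprints in replicate 1 and 0 of 75 in replicate 2, against 0.226% and 0.231% of all footprints. A match says that these letters are there, not that CTCF is. At Tbx1 the match CACCAGAGGGC lay in a footprint from 18617836 to 18617868 in both libraries, with identical ends. At Tbx2 the match CACGAGATGGC lay in a footprint of 31 bases in each library, 1 base apart. At Tbx3 the match CACGAGGGGGC lay in one of 32 bases in replicate 1 and 30 in replicate 2, although the heights there differed. The match at Tbx18, CAGTAGGGGGC, was touched by 2 footprints in replicate 1 and 1 in replicate 2. Searched on both strands, the letters were in 10 of the 48 sites (20.8%), against 19.3% of all sites. They were in 6 of the 14 sites away from starts found in both libraries (42.9%), against 35.4% of 15562. Those shares are near the background, so the pattern is not particular to the T-box windows. Of the 10 matches, 8 touched a footprint in replicate 1 and the same 8 in replicate 2, and over all sites 67.1% of matches did so in replicate 1 and 72.4% in replicate 2.

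Of the 9 other T-box genes, both libraries had a start peak at 1. It was Mga, a broadly used partner of MAX that also carries a T-box, with 3.82 in replicate 1 and 3.74 in replicate 2. Eomes, an early embryo and lymphocyte factor, had 0.499 in the shorter list of replicate 1 only. The longer lists of both libraries held an Eomes start peak, which makes 2 of 9 with those lists, against 61% of protein-coding genes. T, Tbr1, Tbx6, Tbx10, Tbx19, Tbx21 and Tbx22 had none in the shorter lists, and Tbr1 had one in the longer list of replicate 2. Genes known as targets of T-box factors had an open start in both libraries for 6 of 10, against 56% of protein-coding genes. Cdkn1a, a cell cycle inhibitor that Tbx2 and Tbx3 repress, had 3.27 in replicate 1 and 3.54 in replicate 2, at an internal start. Around the Cdkn1a 5′ end 0 bases in replicate 1 and 106 in replicate 2 were listed at an FDR of at most 0.05. Cdkn1b, a related inhibitor, had 3.03 in both, and Cdh1, the epithelial cadherin, had 2.46 and 2.96. Gja5, Nppa, Fgf8 and Fgf10, genes of heart and limb programmes among others, had no start peak in the shorter list of either library. The count with the longer lists was also 6 of 10, and Fgf8 and Fgf10 had a start peak in the longer list of replicate 1. Around the Gja5 5′ end 525 bases in replicate 1 and 460 in replicate 2 were listed at an FDR of at most 0.05. Cdh1 is also in the list of urothelial markers.

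Of the regulators that work with T-box factors in urogenital mesenchyme, 13 of 18 were open at a start in both libraries, against 56% of protein-coding genes. High mean percentiles belonged to Gata2, at 66.2 ± 0.811, and Bmp4, at 54.9 ± 1.41 (SD, n = 2). Gata2 had 2.86 in replicate 1 and 2.59 in replicate 2. Bmp4, a signal from the mesenchyme that is in both lists, had 2.19 and 2.06. These Gata2 and Bmp4 peaks lay at internal starts. Around the 5′ end, the listed bases were 1001 in replicate 1 and 672 in replicate 2 for Gata2, and 0 and 464 for Bmp4. Ptch1, the receptor of Shh, had 1.64 in replicate 1 and 1.75 in replicate 2, and Gli1, an effector of the same signal, had 1.71 and 2.32. For both genes these heights came from peaks that did not overlap between the libraries, and those of Ptch1 lay at internal starts. Around the Ptch1 5′ end 138 bases in replicate 1 and 0 in replicate 2 were listed. Hand2 had a start peak of 1.12 in the shorter list of replicate 2 only. Shh, Tcf21, Hand1 and Wt1 had none in the shorter lists. Shh, the ligand that the urothelium sends to the mesenchyme, had one in the longer lists of both libraries, which makes 14 of 18 with those lists, and 303 bases in replicate 1 and 177 in replicate 2 were listed around its 5′ end. Tcf21 and Wt1 had one in the longer list of replicate 2.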

How the data were processed

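DNase-seq files of 2 libraries of 1 group were used, each processed separately by the authors on mm10, per the deposited read-me texts. Aligner, peak caller and their versions: not given in the sources used here. B6CASTF1/J mice carry CAST/EiJ chromosomes too, and the effect of mapping these to mm10 was not tested. The deposited peak height is a signal value per peak, scaled per library. The deposited FDR file gives adjusted p-values per stretch of bases, listed up to 0.05, and the authors' footprint files carry the same value, 0.01, in each row, so only positions were used. Of 2 peak lists per library the shorter was used and the longer served as the alternative. Peaks overlapping by at least 1 base were merged into sites, and the height of a site is its highest peak. A start peak lies within 500 bases of an annotated start (GENCODE M21). Footprints had to lie wholly inside a peak, and letters were searched up to 5 bases beyond them. Sequences are from RefSeq GRCm38.p6. Scripts ran in python 3.11.15 with numpy 2.4.6 and pandas 2.3.3, were tested on simulated data, and drew figures with matplotlib 3.10.9. The T-box genes and lists were chosen with earlier results of these data known. Named sites are, for each gene, the highest start peak and the highest site away from starts in both libraries, and the 3 highest members of each list, of which 1 gene is not reported here. Depth is unknown, since the files give no read counts, so no counting interval was computed. With 1 group no test was made, and an SD over 2 libraries is a rough guide only.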

Additional observations from a re-analysis of the deposited data

How the results depend on the processing

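Of 39 alternative settings over the 6 counts and values, 29 gave the same outcome and 10 moved. The 20 sites found in both libraries became 34 with the longer peak lists and 10 with the higher 50% of peaks, and 33 to 35 sites were found when a single library was used. The 4 genes with a start peak in both libraries became 2 with the higher 50% of peaks, Tbx2 and Tbx3 by their heights, and 4 to 6 in a single library. They became 3, without Tbx18, when only the 5′ end of the gene counted as a start. With an overlap of at least 50% of each peak they also became 3, here without Tbx2. Its start peaks were 640 bases wide in replicate 1 and 240 in replicate 2. Footprints went from 83 to 42 in replicate 1 and from 75 to 49 in replicate 2 with the higher 50% of peaks, and to 116 in replicate 2 with the longer list. The share of footprints with the T-box element, as the mean of the libraries, was 0 in the main setting and 0.413% with the longer list. The longer lists gave 121 footprints in replicate 1 and 116 in replicate 2, so that share rests on very few footprints. With the shorter letters GGTGTG it was 0.602%, from 1 of 83 footprints in replicate 1 and 0 of 75 in replicate 2. Over all footprints GGTGTG was in 1.32% and 1.4%. By construction, longer lists hold more peaks and the higher 50% fewer. The median log2 height ratio, -0.035, changed sign to 0.177 with the higher 50% of peaks. Windows of 10 kb and 100 kb gave 14 and 28 sites in both libraries. No paired analysis was possible because there is 1 group. The low sites of the Tbx2 and Tbx5 bodies rest on 1 library each, and the unknown depth limits what their absence from the other library can show.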

Other observations

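A small part of the shorter peak list had no overlap in the longer list of the same library, 747 of 38674 peaks (1.93%) in replicate 1 and 932 of 47661 (1.96%) in replicate 2. One of them was the low peak at 20.4 kb from the Tbx3 5′ end, with a height of 0.850 in replicate 1. The letters CANNAGNNGGC were more frequent in sites away from starts (25.8% of 29717) than in sites at starts (10.4% of 21511).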
